A study of Mus musculus with 4 samples.

Results

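The 10 nuclear genes described here encode proteins that copy mitochondrial DNA, transcribe it and keep its RNA stable: Tfam, Tfb1m, Tfb2m, Polrmt, Polg, Polg2, Ssbp1, Mgme1, Lrpprc and Slirp. They were taken by name from a table of 55414 genes, and 10 of 10 names matched an Ensembl identifier. The RNA came from mouse neural stem cells that had been isolated from E14.5 embryonic cortex, expanded as floating spheres and replated as an adherent layer, in medium with 20 ng/ml EGF and 10 ng/ml basic FGF. The groups were wild type (2 libraries) and Mettl4 knockout (2 libraries), which shared tissue, age and medium. The labels name no strain, sex or deleted exon, and do not say whether the replicates of a genotype came from separate embryos or cultures, so p-values reflect only how these libraries differ, in part perhaps for technical reasons.

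Mitochondrial DNA is a small circle, present in many copies per cell, that encodes subunits of the respiratory chain together with the ribosomal and transfer RNAs needed to translate them. Every protein that replicates or transcribes it is encoded in the nucleus and imported. TFAM coats the DNA and bends it at the promoters, where the RNA polymerase POLRMT starts transcription with TFB2M. POLG copies the DNA with its accessory subunit POLG2, while SSBP1 covers single strands and MGME1 trims free ends. LRPPRC and SLIRP form a complex that holds most messenger RNAs of the mitochondrial genome stable, and TFB1M methylates the small mitochondrial ribosomal RNA. Mettl4 encodes an adenine methyltransferase, and a role of the human protein in methylating mitochondrial DNA has been described, which gives the reason to look at these genes in its absence.

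The libraries held 12812064 to 19310668 counts. Levels are given in CPM, counts scaled to library size with the libraries set against each other by the TMM method (trimmed mean of M values). Below, a pair of values for a genotype gives replicate 1 and then replicate 2. Mettl4 itself read 63.7 and 66.5 CPM with the gene intact against 15.6 and 17.5 CPM in the knockout, a log2 fold change of -1.97 (SE 0.17, adjusted p = 0.0051 by edgeR's quasi-likelihood test). The 8 neural stem cell markers examined summed to between 5335 and 6308 CPM, and 0 of them had an adjusted p under 0.05. Sox2, Nes and Fabp7 had log2 fold changes of 0.14, 0.25 and 0.36, with groups that overlapped. Pax6, Vim, Hes1 and Slc1a3 had both knockout libraries below both wild type libraries, at -0.12, -0.20, -0.23 and -0.30, and Notch1 measured -0.10 with overlap. Over all genes tested both knockout libraries lay below for 14.9% and above for 12.5%, and these shares were not tested. Markers of neurons summed to between 15.8 and 21.1 CPM, with genes that went both ways. Snap25 and Rbfox3 had both knockout libraries below both wild type libraries (-0.59 and -0.37) and Tubb3 had both above (0.29). Dcx overlapped (0.69), and Stmn2 did not pass the low-count filter. Markers of microglia summed to between 6.33 and 7.43 CPM, of endothelium to between 1.13 and 2.13 CPM, and of red blood cells to between 8.40 and 10.7 CPM, most of it from Alas2 at 6.23 to 7.79 CPM. The near-identical haemoglobin genes Hba-a1 and Hba-a2, with 2 to 26 counts per library, had both knockout libraries above both wild type libraries (log2 fold changes 1.10, SE 0.73, and 1.38, SE 0.60), against 12.5% of all genes tested. Hbb-bs overlapped, at 0.12 (SE 0.72). Alas2 went the other way, with both knockout libraries below both wild type libraries at -0.19 (SE 0.24), against 14.9% of all genes. Meningeal and mural markers, 5 genes of which 3 had no read in at least 1 library, summed to 7.46 and 4.69 CPM in the wild type and to 3.32 and 2.19 CPM in the knockout. Acta2, the 1 gene of that list that passed the low-count filter, made up most of these sums, at 6.63 and 3.65 CPM against 2.58 and 1.80 CPM, while Dcn had 3 and 0 counts against 7 and 6. The part of these markers in the results below was not tested. In bulk RNA a smaller share of cells of a type and less RNA per cell cannot be told apart.

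Nuclear genes of this kind often carry short promoter elements read by the transcription factors NRF1, GABPA and YY1, whose RNA was measured in the same libraries. RefSeq promoter windows, 250 bases before to 50 bases after the annotated start on GRCm38.p6, were found for 10 of 10 genes and searched on both strands. The stretches below are shown because they place a GABPA-type (ETS family) element, CCGGAAG or its complement CTTCCGG, or the YY1 element AAGATGGCG or its complement, upstream of 7 of the genes. Each is read 5′ to 3′ on the strand of the gene, with the matched letters in capitals.
Tfam, chr10:71238060-71238116, minus strand: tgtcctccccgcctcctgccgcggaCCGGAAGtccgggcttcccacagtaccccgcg
Polrmt, chr10:79746593-79746649, minus strand: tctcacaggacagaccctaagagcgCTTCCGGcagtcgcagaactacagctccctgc
Polg, chr7:79466280-79466336, minus strand: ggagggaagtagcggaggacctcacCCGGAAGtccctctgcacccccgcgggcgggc
Polg2, chr11:106779538-106779591, minus strand: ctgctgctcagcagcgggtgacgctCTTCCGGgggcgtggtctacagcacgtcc
Ssbp1, chr6:40471396-40471452, plus strand: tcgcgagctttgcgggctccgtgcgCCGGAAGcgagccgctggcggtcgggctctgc
Slirp, chr12:87443785-87443843, plus strand: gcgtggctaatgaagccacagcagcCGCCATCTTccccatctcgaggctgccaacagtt
Mgme1, chr2:144270813-144270871, plus strand: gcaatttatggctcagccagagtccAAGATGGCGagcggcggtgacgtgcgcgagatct

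The GABPA-type element was present in 6 of the 10 windows, against 8.86% of 32817 RefSeq windows of the same length. Slirp held 3 copies of it besides the YY1 element shown, and Tfam, Polrmt, Polg, Polg2 and Ssbp1 held 1 each. The YY1 element was present in 2 windows, those of Mgme1 and Slirp, against 1.40% of all windows. The NRF1 element was present in Polrmt alone among the 10, as 2 overlapping matches of the letters GCGCGTGCGC that lie across the annotated start, against 4.59% of all windows. No exact match to any of the 3 elements lay in the windows of Tfb1m, Tfb2m and Lrpprc. The windows compared against were not matched to the 10 genes for base composition or expression, and the shares were not tested. A match describes letters only and is not a bound site.

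None of the 10 genes was called for a genotype difference, a call being an adjusted p under 0.05 (edgeR's quasi-likelihood test, Benjamini-Hochberg values over 19912 genes tested). The share called among all genes was 0.00502%, which is Mettl4 alone. At an unadjusted p under 0.05 the count was 0 of 10 as well, against 2.77% of all genes, and DESeq2 and limma-voom each called 0 of the 10. With the replicate number as a block the unadjusted count was 1 of 10 (Lrpprc, edgeR adjusted p = 0.58), against 1560 of the 19912 genes in the same fit. Without knockout replicate 1 the log2 fold changes of Lrpprc and Slirp were -0.41 and 0.48. All 10 passed the low-count filter, with between 97 and 2951 counts per library. The log2 fold changes, knockout minus wild type, ran from -0.24 to 0.19 around a median of -0.03, with 4 above 0 and 6 below. Over all genes tested the median was -0.001 and 49.7% were positive. The size of the difference was under 0.2 for 8 of the 10, against 61.2% of all genes. The 95% confidence intervals of 10 of 10 genes lay within a 2-fold change in either direction, and those of 6 of 10 within a 1.5-fold change. A p-value that misses the threshold does not show equal levels. Like the p-values, these intervals reflect only how these libraries differ, and give the sizes of change left possible given that spread.

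**Figure D1:**
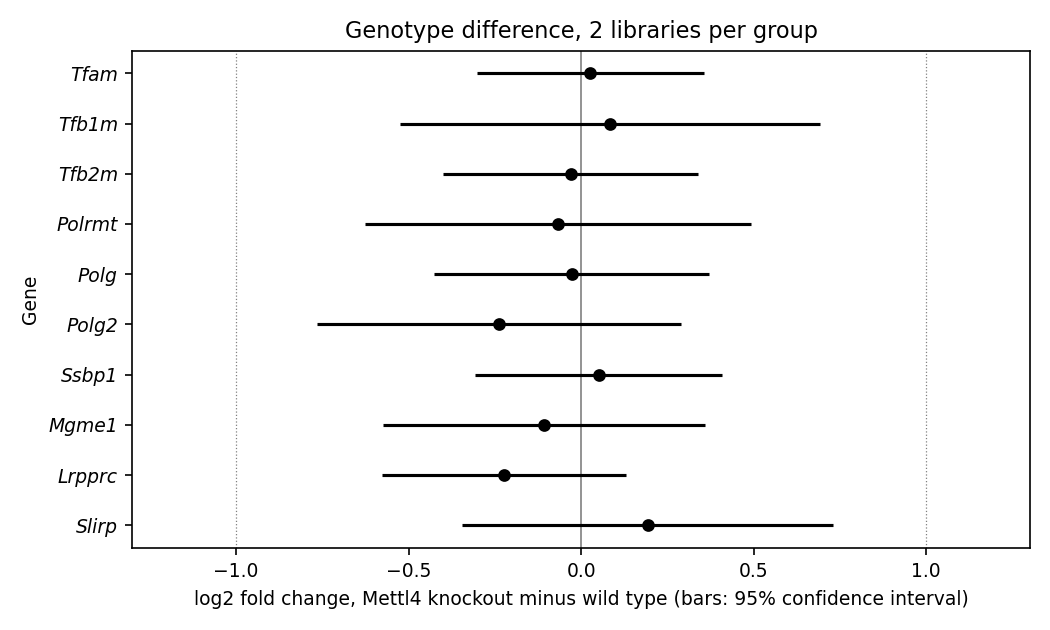
Log2 fold change of each gene, Mettl4 knockout minus wild type, with points for the edgeR estimate and bars for its 95% confidence interval (2 libraries per group). All bars cross 0 and stay inside the dotted lines that mark a 2-fold change, and Polg2 and Lrpprc lie farthest to the left at -0.24 and -0.22.

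Tfam, the packaging protein and activator, read 66.9 and 68.5 CPM in the wild type against 63.3 and 74.6 CPM in the knockout. The knockout libraries lay on either side of both wild type libraries. Its log2 fold change was 0.03 (SE 0.15, 95% interval from -0.30 to 0.36), the smallest standard error of the 10. In fold terms the interval ran from 0.811 to 1.28 times the wild type level.

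Polrmt, the RNA polymerase of mitochondria, read 17.4 and 11.2 CPM in the wild type and 14.6 and 12.6 CPM in the knockout. Both knockout values lay between those of the wild type. Its log2 fold change was -0.07 (SE 0.25, interval from -0.63 to 0.49). Tfb2m, which opens the promoter with POLRMT, had the smallest range of the 10 over the libraries, at 32.2 and 34.1 CPM in the wild type and 31.5 and 33.4 CPM in the knockout, with a log2 fold change of -0.03 (SE 0.17). Its paralog Tfb1m, the ribosomal RNA methyltransferase, varied far more, at 7.31 and 11.02 CPM in the wild type and 8.32 and 11.2 CPM in the knockout. The genotypes overlapped for both, and the Tfb1m log2 fold change was 0.08 (SE 0.27, interval from -0.52 to 0.69).

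Polg, the catalytic subunit of the DNA polymerase, had the highest CPM of the 10 in each library. It read 163 and 122 CPM in the wild type and 155 and 124 CPM in the knockout, with a log2 fold change of -0.03 (SE 0.18, interval from -0.43 to 0.37). The replicates of a genotype differed more than the genotypes did. Polg2, the accessory subunit that holds the polymerase on its template, read 7.83 and 8.28 CPM in the wild type and 7.16 and 6.50 CPM in the knockout. It was the 1 gene of the 10 whose groups did not overlap, with both knockout libraries below both wild type libraries, as was the case for 14.9% of all genes tested (27.4% did not overlap in either direction). Its log2 fold change was -0.24 (SE 0.24, interval from -0.77 to 0.29), a level of 0.848 times the wild type. With 104 to 136 counts per library, Polg2 rested on few reads, and its adjusted p was 0.9999.

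Ssbp1, which covers single-stranded mitochondrial DNA, read 37.7 and 43.0 CPM in the wild type and 40.7 and 43.1 CPM in the knockout (log2 fold change 0.05, SE 0.16). Mgme1, the exonuclease that trims free DNA ends, read 17.4 and 22.7 CPM in the wild type and 17.4 and 19.9 CPM in the knockout (log2 fold change -0.11, SE 0.21). The knockout range lay within the wild type range for Mgme1 and nearly so for Ssbp1.

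Lrpprc, the large scaffold of the RNA stability complex, read 130.0 and 120 CPM in the wild type against 120.1 and 93.7 CPM in the knockout. Knockout replicate 2 stood below the other libraries, and the groups overlapped because knockout replicate 1 lay just above wild type replicate 2. Its log2 fold change was -0.22 (SE 0.16, interval from -0.58 to 0.13) and its unadjusted p in the edgeR fit, 0.19, was the smallest of the 10. Without knockout replicate 2 the log2 fold change was -0.05. Slirp, the small RNA-binding partner of LRPPRC, read 38.8 and 56.5 CPM in the wild type and 42.4 and 66.8 CPM in the knockout, with replicate 2 above replicate 1 in both genotypes. Its log2 fold change was 0.19 (SE 0.24, interval from -0.35 to 0.73), and it was -0.17 without knockout replicate 2.

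**Figure D2:**
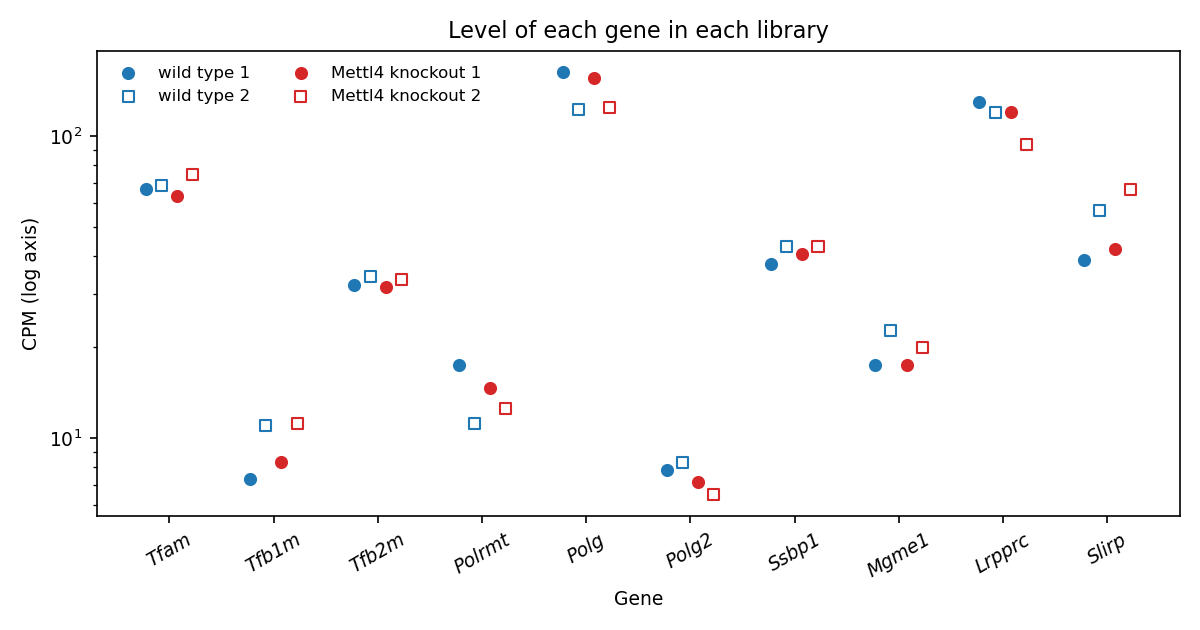
Level of each gene in CPM on a log axis, with blue for wild type, red for Mettl4 knockout, filled circles for replicate 1 and open squares for replicate 2. For 9 of the 10 genes, all but Polg2, the colours overlap and the symbols separate by replicate number instead.

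Slirp counts carry a further uncertainty. In the GENCODE annotation 93.9% of the exon length of Slirp, taken over all its isoforms, is shared with Snw1, a splicing factor gene on the opposite strand. The sources used here do not say whether counting used the strand, and without it these genes cannot be told apart where they overlap. Snw1 read 81.7 and 98.2 CPM in the wild type and 81.7 and 117 CPM in the knockout. The ratio of Slirp to Snw1 counts, in which library scaling cancels, stayed between 0.475 and 0.576 in the 4 libraries. Opposite-strand exon overlaps of the other genes were smaller, at 8.57% of exon length for Polg with Fanci, 6.15% for Mgme1 with Snx5, 3.93% for Tfb1m with Tiam2 and 3.03% for Polg2 with Milr1.

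Partner genes can be compared within a library without any scaling. The ratio of Slirp to Lrpprc counts was 0.298 and 0.473 in the wild type against 0.353 and 0.713 in the knockout. The genotypes overlapped, and the ratio was higher in replicate 2 of each. Polg counts were 20.8 and 14.8 times those of Polg2 in wild type cells, against 21.7 and 19.2 times in the knockout, and here too the groups overlapped. The ratio of Tfam to Ssbp1 counts, both coats of mitochondrial DNA, was the steadiest examined, at 1.77 and 1.59 in the wild type against 1.56 and 1.73 in the knockout. Tfam to Polrmt counts ran from 3.84 to 6.12 in the wild type and from 4.32 to 5.94 in the knockout. With 2 libraries against 2, an exact two-sided permutation test of such a ratio cannot go below p = 0.333, so no test was made.

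These genes also varied between libraries of the same genotype. For 8 of the 10 genes the difference between the wild type libraries was larger than the genotype difference, as it was for 64.0% of all genes tested. The former compares single libraries and the latter groups of 2, whose averages scatter less. The former thus tends to be larger even without a genotype effect, and nothing is concluded from this count. The log2 ratio of replicate 2 over replicate 1 had the same sign in both genotypes for 9 of the 10 genes, and for 64.3% of all genes. For the same 9 genes the values of replicate 1 and of replicate 2 did not overlap, as was the case for 49.5% of all genes. Slirp was higher in replicate 2 by 0.54 (wild type) and 0.65 (knockout), and Tfb1m by 0.59 and 0.42. Polrmt had values of -0.63 and -0.22, Polg of -0.42 and -0.32, and Lrpprc of -0.12 and -0.36. Polg2 alone changed sign, at 0.08 and -0.14. Within the set, Polrmt and Slirp had the least alike profiles over the 4 libraries, with a root mean square distance of 0.53 between their centred log2 CPM, while Tfb2m and Ssbp1 were the most alike at 0.06.

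**Figure D3:**
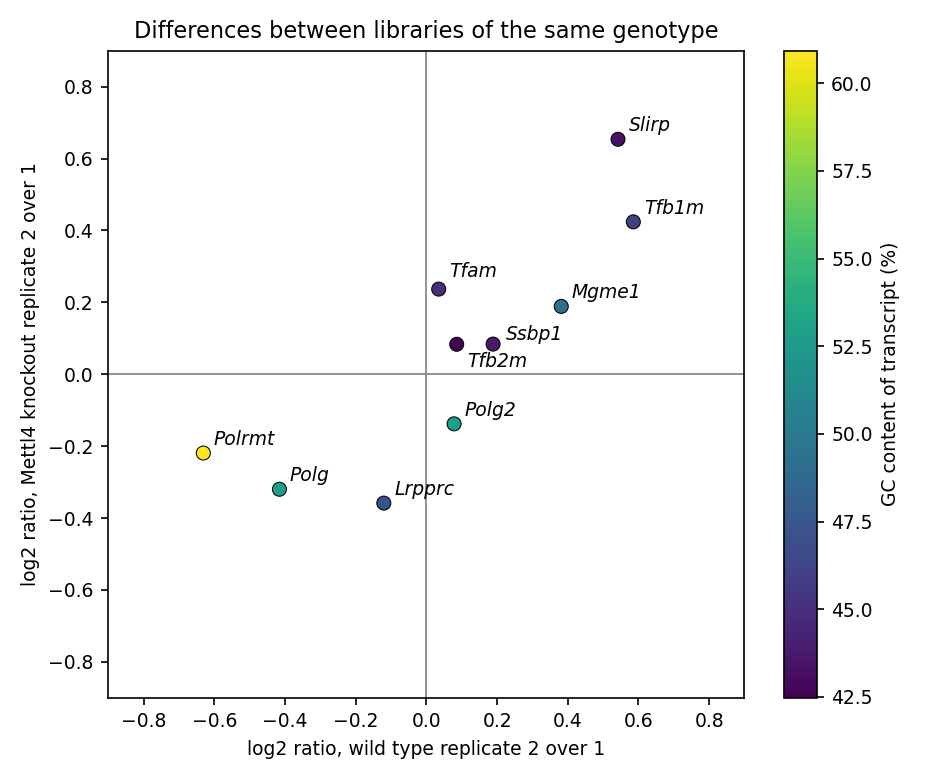
Log2 ratio of replicate 2 over replicate 1 in the wild type (horizontal) and in the Mettl4 knockout (vertical), 1 point per gene, coloured by GC content of the transcript in percent. Points for 9 of the 10 genes lie at the upper right or lower left, with the same sign on both axes, and Polrmt, with the highest GC content at 60.9%, lies farthest to the left.

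GC content and transcript length moved with these differences. The GC content of the 10 transcripts ran from 42.5% for Tfb2m to 60.9% for Polrmt. Across the 10 genes, Spearman's rho between GC content and the log2 ratio of replicate 2 over 1 was -0.56 in the wild type and -0.55 in the knockout, and for transcript length it was -0.71 and -0.48, as a description of genes that share the same libraries. Against the genotype difference rho was -0.61 for GC content and -0.18 for transcript length. Over all genes tested, the median ratio of replicate 2 over 1 was 0.11 in the third of genes with the lowest GC content and -0.16 in the third with the highest in the wild type; the knockout values were 0.07 and -0.15. The median genotype difference was 0.04 in the third with the lowest GC content and -0.03 in the third with the highest. With the GC trend of each library removed, an alternative chosen after seeing the data, Polrmt had a genotype difference of 0.01 and Polg one of 0.005, and 0 of the 10 genes were called. In that fit Tfb1m measured 0.10, Tfb2m -0.05, Tfam 0.02, Ssbp1 0.04 and Mgme1 -0.08. Polg2 measured -0.21, Lrpprc -0.22 and Slirp 0.18.

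Per kilobase of transcript the order of levels differed from that in CPM. Ssbp1 was highest, with 33.5 to 38.3 CPM per kilobase over the 4 libraries. Lrpprc followed at 21.3 to 29.6 and did not reach the Ssbp1 range, and then came Slirp at 14.4 to 24.7, Polg at 15.6 to 20.8 and Tfam at 15.2 to 17.9 CPM per kilobase. The ranges of neighbours from Lrpprc to Tfam overlapped. Tfb2m, at 12.9 to 13.9 CPM per kilobase, lay below every library of these genes. Mgme1 at 7.38 to 9.62, Tfb1m at 5.21 to 7.99, Polg2 at 4.32 to 5.50 and Polrmt at 2.98 to 4.63 CPM per kilobase formed the lower end, each overlapping its neighbour. The mean levels of the highest and the lowest gene differed 9.84-fold. Tfam and Slirp have annotated transcripts of 4167 and 2701 bases, against coding sequences of 729 and 336 bases. Per kilobase of coding sequence Slirp ranked highest with a mean of 152 CPM per kilobase and Tfam next with 93.7, while Polrmt stayed lowest with 3.85. The rank of Slirp by either length is uncertain, since its counts may include reads of Snw1 as described above.

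Together the 10 genes took up 0.0537% and 0.0484% of wild type counts, against 0.0524% and 0.0461% of knockout counts. Among 7990 genes outside the set with at least 20 CPM on average, those with the most similar mean profile included Zfp871 and Cdk5r1, at root mean square distances of 0.0036 and 0.0069 in centred log2 CPM over the 4 libraries. That profile is nearly flat, with a range of 0.10.

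The wider machinery around these genes was described through fixed lists of 62 nuclear genes. Of these, 0 were called higher and 0 lower by edgeR over all genes, where the share called was 0.00502%. At an unadjusted p under 0.05 there were 0 higher and 1 lower, against 1.15% and 1.62% of all genes. The log2 fold change was under 0.2 in size for 52 of 62, against 61.2% of all genes. The median SE of the 62 was also smaller, at 0.18 against 0.25 over all genes. Both knockout libraries lay below both wild type libraries for 13 of the 62 (21.0%, against 14.9% of all genes) and above for 2 (3.23%, against 12.5%). These shares describe the list and were not tested.

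Among 9 partners in DNA replication and upkeep, the median was -0.05, with 4 above 0 and 5 below. Twnk, the helicase that unwinds mitochondrial DNA ahead of POLG, read 26.1 and 24.6 CPM in the wild type and 22.5 and 18.3 CPM in the knockout, with groups that did not overlap (log2 fold change -0.31, SE 0.19, edgeR adjusted p = 0.9999). Primpol, a primase that can restart stalled replication, read 20.6 and 19.4 CPM against 16.4 and 16.2 CPM (log2 fold change -0.29, SE 0.19). Top1mt, the mitochondrial topoisomerase, lay near the low end of detection at 1.64 to 2.63 CPM.

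Of 6 partners in transcription, 3 were positive and 3 negative. Tefm, the elongation factor of POLRMT, measured -0.01 (SE 0.21), Mterf3 -0.02 (SE 0.15) and Mterf4, which acts in mitochondrial ribosome assembly, 0.11 (SE 0.20). Mterf2 had the smallest p of the list, with 9.94 and 11.7 CPM in the wild type and 11.8 and 15.3 CPM in the knockout (log2 fold change 0.32, SE 0.23). Of 21 genes of RNA processing and turnover, the median was 0.02, with 11 above 0 and 10 below and a range from -0.16 to 0.14. Elac2 and Trmt10c, whose proteins take part in cutting transfer RNAs out of the long primary transcripts, measured -0.003 (SE 0.19) and 0.12 (SE 0.18). The poly(A) polymerase Mtpap measured 0.03 (SE 0.14), the degrading enzymes Pnpt1 and Supv3l1 0.14 (SE 0.18) and -0.07 (SE 0.17), and the RNA granule protein Grsf1 0.02 (SE 0.15). Fastk, whose mitochondrial isoform is needed for mt-Nd6 messenger RNA, had the smallest p of that list at -0.14 (SE 0.17).

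Of 11 genes of mitochondrial nucleotide supply, 10 had a log2 fold change below 0, against 50.3% of all genes tested, and the median was -0.09 against -0.001. Both knockout libraries lay below both wild type libraries for 5 of the 11, against 14.9% of all genes, and these shares were not tested. Tymp, thymidine phosphorylase, had the smallest p (log2 fold change -0.37, SE 0.24). Tk2 and Dguok, the kinases that salvage deoxynucleosides inside mitochondria, measured -0.03 (SE 0.23) and 0.07 (SE 0.24), and the ribonucleotide reductase subunit Rrm2b -0.15 (SE 0.19). None of the 11 was called. Of 6 nucleoid scaffold and protease genes, 2 were positive and 4 negative. Lonp1, the protease that degrades TFAM, measured -0.04 (SE 0.15), and Atad3a had the smallest unadjusted p of the list at -0.26 (SE 0.19).

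Of 9 nuclear regulators, the median was 0.01, with 6 above 0 and 3 below. Ppargc1a, a coactivator of mitochondrial biogenesis, was the 1 gene of the 62 with an unadjusted p under 0.05, where the share of all genes was 2.77%. It read 74.0 and 96.3 CPM in the wild type and 64.9 and 62.5 CPM in the knockout, with groups that did not overlap (log2 fold change -0.42, SE 0.16, edgeR adjusted p = 0.9999). The factors whose elements were searched in the promoters showed smaller differences, with Nrf1 at 0.01 (SE 0.14), Gabpa at 0.14 (SE 0.16) and Yy1 at 0.16 (SE 0.18). Pprc1, a relative of Ppargc1a, read 54.4 and 31.5 CPM in the wild type and 45.7 and 28.8 CPM in the knockout (log2 fold change -0.20, SE 0.28), lower in replicate 2 of both genotypes.

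**Figure D4:**
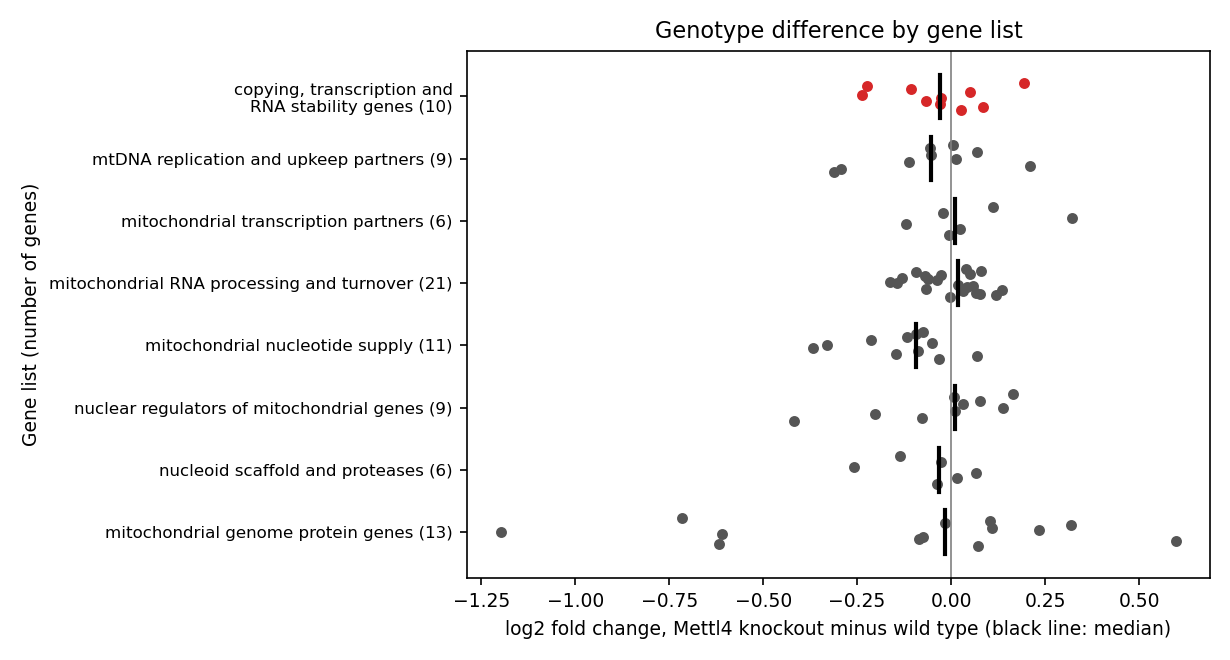
Log2 fold change, Mettl4 knockout minus wild type, of each gene by list, with 1 point per gene and a black line at the median of the list. The 10 genes described here, in red, spread from -0.24 to 0.19 and the mitochondrial genome genes from -1.20 to 0.60.

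The 13 protein genes of the mitochondrial genome, the output of this machinery, spread more widely than the nuclear genes that serve it, from -1.20 to 0.60, with 0 called by edgeR over all genes, and 1 higher and 4 lower at an unadjusted p under 0.05, against 1.15% and 1.62% of all genes. The only protein gene of the light strand, mt-Nd6, read 268 and 249 CPM in the wild type and 134 and 91.3 CPM in the knockout (log2 fold change -1.20, SE 0.19, edgeR adjusted p = 0.80), and DESeq2 called it (adjusted p = 0.00062). The others past the unadjusted threshold, named after their values were seen, were mt-Nd2 at -0.62 (SE 0.16), mt-Nd5 at -0.61 (SE 0.18), mt-Atp8 at -0.72 (SE 0.19) and mt-Nd3 at 0.60 (SE 0.16). Both knockout libraries lay below both wild type libraries for 4 of the 13 genes and above for 1, against 14.9% and 12.5% of all genes. Genes picked by p in the same libraries tend not to overlap, so these counts add nothing to the p-values. The abundant mt-Co1 read 6251 and 10705 CPM against 7743 and 12181 CPM, and mt-Nd1 and mt-Cytb measured 0.07 (SE 0.25) and -0.02 (SE 0.36). These genes have near-identical nuclear copies, and their counts are uncertain to that extent. For mt-Nd6 it is also unknown whether counting kept its reads apart from those of the opposite strand.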

How the data were processed

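RNA sequencing libraries of 2 wild type and 2 Mettl4 knockout samples were grouped by the labels. The authors deposited raw read counts per gene, made with featureCounts after STAR 2.7.10 on GRCm39, per the submitters' processing notes. The sources used here do not give the settings for strand or for reads with several matches. Symbols, transcript lengths (median over CCDS transcripts), GC content and exon overlaps came from GENCODE vM21 (GRCm38), which named 52081 of 55414 identifiers. Promoter windows came from RefSeq. Coordinates are GRCm38.p6 and were not combined with the files' build.

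Counts were filtered with filterByExpr (minimum count 10), scaled by TMM and tested with edgeR 4.0.16 (R 4.3.3; quasi-likelihood F test, robust=TRUE), with Benjamini-Hochberg adjustment over 19912 genes and a threshold of 0.05. Each SE is the absolute log2 fold change divided by the square root of the F statistic. The script was tested on simulated data. The set and the lists were chosen with earlier results of these data known. Named genes are Mettl4, the 10 genes, fixed genes of each list, the member with the smallest p per list, and the genes with the mean profile most like that of the 10, of which not all are reported here. Prorp was matched through an older symbol. Alternatives were DESeq2 1.42.0, limma-voom (limma 3.58.1), other scalings, filters and dispersion settings, leaving out each library, the replicate number as a block, and removal of GC or length trends.

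The libraries were no repeats of a single library: the chi-square per degree of freedom was 18.7 for the wild type pair and 29.5 for the knockout pair, where sampling noise alone gives about 1.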

Additional observations from a re-analysis of the deposited data

How the results depend on the processing

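None of the 10 genes was called in any of the 16 alternatives, and their lowest adjusted p was 0.54, for Slirp. Lrpprc and Polg2 stayed negative in all 16, from -0.41 to -0.054 and from -0.31 to -0.17. The other 8 genes changed sign in at least 1 alternative. When a library was left out, the log2 fold change ran from -0.096 to 0.14 for Tfam, from -0.18 to 0.43 for Tfb1m, from -0.072 to 0.026 for Tfb2m, from -0.34 to 0.28 for Polrmt, from -0.21 to 0.19 for Polg, from -0.039 to 0.16 for Ssbp1, from -0.28 to 0.11 for Mgme1 and from -0.17 to 0.51 for Slirp. Tfam turned negative only without knockout replicate 2, Ssbp1 only without wild type replicate 1, and Mgme1 positive only without wild type replicate 2. With each library's GC trend removed, Polrmt was at 0.014 and Polg at 0.0049. The median of the 10 ran from -0.084 without knockout replicate 2 to 0.041 without wild type replicate 2. These fits assume that the lone library of a group varies like the others, and beyond the change of libraries the cause was not tested.

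Over all genes 1 was called in the reported fit, 6 with DESeq2 and 41 with no low-count filter. Leaving out a library gave 1 to 47 calls: 31 and 17 for wild type replicates 1 and 2, and 47 and 1 for knockout replicates 1 and 2. Of the companion genes 0 were called in the reported fit. DESeq2, the unfiltered fit and the fits that left out a library called 1 (mt-Nd6), except for knockout replicate 2, without which 0 were called. Treating the replicate number as a block gave 9 calls over all genes, 1 companion call (mt-Nd6) and 0 of the 10. No label pairs the libraries, and the deviations of same-numbered libraries had a correlation of 0.23. Per coding length, taken from the GENCODE annotation, the highest and lowest levels differed 39.5-fold in place of 9.84-fold. The highest was then Slirp, whose counts may include reads of Snw1. With 1 mismatch allowed the NRF1 element lay in 4 windows in place of 1, against 14.2% of all windows. Mettl4 was called in all 16 alternatives.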
